A study of Rattus norvegicus with 43 samples.

Results

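Expression of 36 macrophage and myeloid cell genes was followed in the kidney cortex of rats that differed in genotype label, dietary salt and time of day. The genes were chosen by symbol, as rows of both deposited FPKM tables whose gene name matched a list of macrophage and myeloid markers, and all 36 of the 36 symbols were found among the 32545 genes of the normal salt table and the 34899 genes of the high salt table. All animals were male rats of the SS strain background, a salt-sensitive hypertensive strain, fed one of the diets for 3 weeks. The high salt diet held 4% NaCl and the normal salt diet 0.4% NaCl. Kidney cortex was taken at 2am, in the active phase of this nocturnal animal, or at 2pm, in its inactive phase. Libraries whose genotype label was SSPer1-/- are called Per1KO, and those labelled SS carry the strain name alone. The 43 libraries fell into 8 groups: Per1KO and SS on high salt at 2am and at 2pm had 5 libraries each, Per1KO on normal salt at 2am had 5, and Per1KO on normal salt at 2pm and SS on normal salt at 2am and at 2pm had 6 each. The age of the animals was not given in the sources used here, and whether each library came from its own animal was not stated either, so p-values measure the spread between these libraries.

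Macrophages of the kidney derive from embryonic precursors and from blood monocytes, lie between the tubules, clear debris and present antigen, and depend on colony-stimulating factor 1 acting on its receptor Csf1r. The transcription factor PU.1, encoded by Spi1, sets the myeloid gene programme. Renal macrophages are known to accumulate in salt-sensitive hypertension, and Per1, the gene named in the genotype label, encodes a repressor of the circadian clock. The genes are described here by role, from regulators and surface receptors to lysosomal enzymes, the injury-associated genes Lgals3 and Gpnmb, and the calprotectin subunits S100a8 and S100a9.

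Depth was about 15340000 to 27640000 assigned fragments per library on high salt and 23970000 to 41640000 on normal salt. The proximal tubule endocytic receptor Lrp2 was at 104 to 371 FPKM in every library, so each held proximal tubule mRNA. The mRNA of Per1 did not separate the labels: its mean was 15.0 ± 4.56 FPKM in Per1KO and 12.4 ± 4.60 FPKM in SS on high salt at 2pm (SD, n = 5 each), and the other comparisons of Per1 gave adjusted p-values of 0.392, 0.735 and 0.763 in limma. The allele was not described in the sources used here, so the Per1 level does not check the labels, and each direction given is that of the libraries labelled Per1KO against the libraries labelled SS. Some libraries stood apart before any comparison. SS high salt 2pm replicates 4 and 5 had proximal tubule marker means of 5.68 and 6.87 on the log2(FPKM + 1) scale. SS normal salt 2pm replicate 5 had one of 6.77. The podocyte marker means of these libraries, in the same order, were 1.82, 2.90 and 2.61, against 3.36 to 4.74 in all others. The Per1KO libraries on high salt at 2pm also had low tubule means, 6.90 to 7.70, but were not counted among those that stood apart. Per1KO normal salt 2pm replicate 1 had a fat marker mean of 3.82. For the 36 genes, counts of passing genes that rest on the libraries that stood apart are given with and without them.

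Of the 36 genes, 22 had a RefSeq promoter sequence (build GRCr8, from 250 bases before to 50 bases after the annotated gene start). Each promoter was searched on both strands for GAGGAA, the purine-rich core around which PU.1 binds. It was present in 16 of the 22 myeloid promoters (72.7%), against 27.6% of all 33469 promoters. The longer GAGGAAGT, which contains GAGGAA, was in 2 of 22 (9.09%, Ctss and Cd53) against 2.42%, and AAAGNGGAA, which can overlap GAGGAA, was in 5 of 22 (22.7%) against 2.44%. Among clock elements, CACGTG, the E-box, was in 0 of 22 against 6.42%, and TAGGTCA, a ROR and REV-ERB element, in 0 of 22 against 2.63%. At such low shares 22 promoters are too few for a count of 0 to show a lack of these elements. A match is a description of letters in the window and not a binding site. The promoters of 4 genes that recur in the results are printed 5′ to 3′ on the strand of the gene, with GAGGAA or its reverse complement TTCCTC in capitals.
Cd68 (chr10:54882392-54882691, minus strand): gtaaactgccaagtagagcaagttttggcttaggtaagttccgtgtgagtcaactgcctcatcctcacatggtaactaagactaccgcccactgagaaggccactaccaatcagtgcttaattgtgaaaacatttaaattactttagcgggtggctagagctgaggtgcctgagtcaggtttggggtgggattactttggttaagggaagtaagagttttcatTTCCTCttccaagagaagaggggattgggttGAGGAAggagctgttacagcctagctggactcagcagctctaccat
Mrc1 (chr17:82157475-82157774, plus strand): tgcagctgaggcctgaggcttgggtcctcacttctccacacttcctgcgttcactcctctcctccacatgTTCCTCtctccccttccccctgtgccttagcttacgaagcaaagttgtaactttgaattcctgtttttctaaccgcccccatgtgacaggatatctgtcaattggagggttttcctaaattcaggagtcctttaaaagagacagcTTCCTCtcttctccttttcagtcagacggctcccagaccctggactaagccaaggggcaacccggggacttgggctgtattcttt
Ctss (chr2:185775146-185775445, plus strand): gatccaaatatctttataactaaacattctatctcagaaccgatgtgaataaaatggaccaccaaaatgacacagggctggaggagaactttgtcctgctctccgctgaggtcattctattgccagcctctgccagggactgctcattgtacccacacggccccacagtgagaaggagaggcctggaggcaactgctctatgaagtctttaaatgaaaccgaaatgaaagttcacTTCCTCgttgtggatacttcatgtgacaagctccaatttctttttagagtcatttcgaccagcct
Gpnmb (chr4:79340878-79341177, plus strand): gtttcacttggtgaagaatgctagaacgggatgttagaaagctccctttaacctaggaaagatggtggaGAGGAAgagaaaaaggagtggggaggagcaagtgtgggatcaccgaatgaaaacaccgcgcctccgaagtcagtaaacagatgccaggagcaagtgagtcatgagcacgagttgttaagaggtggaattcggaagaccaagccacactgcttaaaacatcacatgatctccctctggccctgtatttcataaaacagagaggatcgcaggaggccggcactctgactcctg
The Cd68 promoter held matches at both -27 and 4 relative to the gene start, Ctss at -15, Mrc1 at -180 and -35, and Gpnmb at -181.

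The most abundant myeloid mRNA in every group was Lyz2, which encodes the lysozyme of macrophages, at group means of 203 to 378 FPKM, on a scale that divides by gene length. Ctss, Fcer1g, Tyrobp and Lgals3 had group means of 19.0 to 73.4 FPKM, and the receptors Csf1r and Mrc1 of 13.3 to 25.0 and 1.05 to 4.54 FPKM. Some genes of the same lineage were close to the limit of detection. The haemoglobin scavenger receptor Cd163 had a median of 0.0868 FPKM on high salt (0 to 0.666) and 0.0599 FPKM on normal salt (0.0111 to 0.193). The scavenger receptor Marco was at 0 in 16 of 20 high salt and 16 of 23 normal salt libraries. Vsig4, a complement receptor of resident macrophages, reached at most 0.305 and 0.156 FPKM, and S100a8, a calprotectin subunit of neutrophils and monocytes, at most 0.693 and 0.801 FPKM. The scavenger receptor Msr1 had a median of 0.622 FPKM on high salt and 0.401 FPKM on normal salt. S100a9, the partner of S100a8, was at 0 to 1.36 FPKM on high salt and 0.0446 to 0.780 FPKM on normal salt. These 6 genes did not reach 1 FPKM in at least 5 libraries of either table and were left out of the tests, as were the integrin Itgam and Ms4a7 on normal salt, so 30 of the 36 genes were tested on high salt and 28 on normal salt.

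Averaged over all 36 genes, the Per1KO groups on high salt had the highest medians of the 8 groups, with the diets normalized in separate tables. The mean of log2(FPKM + 1) had a lowest, median and highest library of 2.97, 3.21 and 3.32 in Per1KO on high salt at 2pm, against 2.53, 2.65 and 2.78 in SS. At 2am on high salt these values were 2.77, 3.08 and 3.11 in Per1KO, against 2.05, 2.67 and 2.79 in SS. On normal salt at 2am they were 2.66, 2.78 and 2.90 in Per1KO, against 2.21, 2.45 and 2.65 in SS. The Per1KO and SS libraries thus did not overlap on high salt at 2pm or on normal salt at 2am, and overlapped slightly on high salt at 2am. On normal salt at 2pm the ranges lay over each other, at 2.43 to 2.86 in Per1KO and 2.51 to 2.92 in SS. The means describe the set of genes and carry no test.

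**Figure D1:**
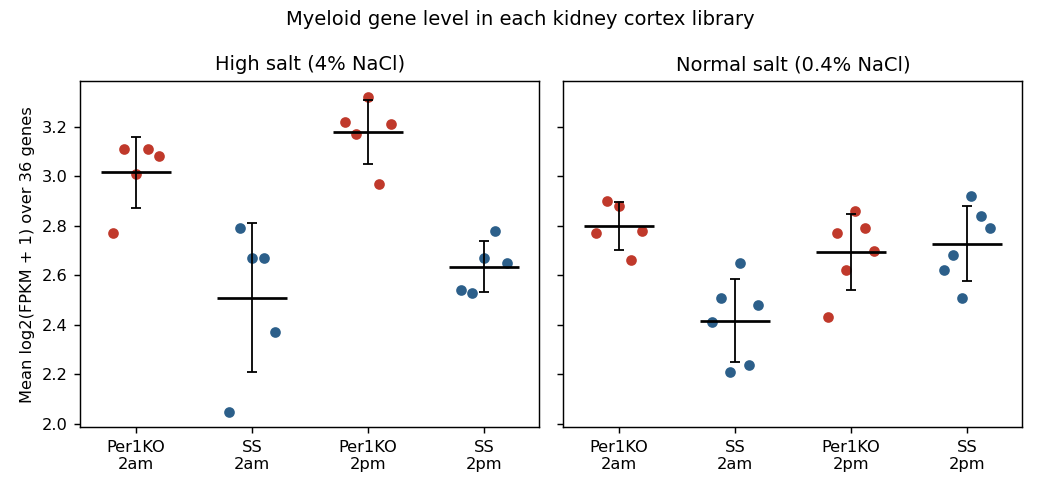
Mean log2(FPKM + 1) over the 36 myeloid genes (vertical axis) in each library (points) of the 8 groups, with the group mean and SD, for high salt and normal salt in separate panels. On high salt at 2pm the Per1KO libraries lie at 2.97 to 3.32 and the SS libraries at 2.53 to 2.78, whereas the normal salt 2pm groups overlap.

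On high salt at 2pm, the inactive phase, myeloid genes of each role with tested members were higher in Per1KO than in SS cortex; neither calprotectin subunit was tested. The pan-macrophage glycoprotein gene Cd68, the lysosomal cysteine protease gene Ctss, the mannose receptor gene Mrc1 and the transmembrane glycoprotein gene Gpnmb had the smallest p-values. In limma on log2(FPKM + 1), 23 of 30 genes passed an adjusted p of 0.05 and all 23 were higher, against 29.8% of the 14899 genes tested that passed in either direction and 14.2% that passed as higher. All 30 differences were above 0, with a median of 0.59 (0.11 to 1.77) on the log2 scale, against 0.003 for all genes. In bulk tissue more myeloid cells and more RNA per cell cannot be told apart.

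Cd68 was at 17.2, 15.0, 14.6, 10.9 and 13.8 FPKM in the Per1KO libraries, against 7.60, 8.45, 7.27, 7.72 and 9.40 FPKM in the SS libraries, a log2 difference of 0.74 ± 0.13 (SE, adjusted p = 0.000652). Every Per1KO library lay above every SS library. Gpnmb, a gene of lipid-laden and lysosome-stressed macrophages, was at 20.9, 40.6, 40.5, 28.6 and 27.8 FPKM in Per1KO, against 7.37, 8.44, 5, 9.54 and 13 FPKM in SS (1.77 ± 0.34, adjusted p = 0.00114). It was the largest difference of the 30. Mrc1 was at 4.48, 4.45, 6.09, 3.48 and 4.21 FPKM in Per1KO, against 2.07, 2.75, 1.60, 1.96 and 1.79 FPKM in SS (0.86 ± 0.19, adjusted p = 0.00296). Ctss was at 64.1, 92.1, 86.9, 58.8 and 65.3 FPKM in Per1KO, against 45.8, 36, 41.4, 50.2 and 39.3 FPKM in SS (0.76 ± 0.16, adjusted p = 0.00175). For both of these genes, too, the groups did not overlap. Lgals3, which encodes the galectin 3 secreted by macrophages and injured epithelium, was at 47.0, 79.8, 82.5, 50.8 and 52.9 FPKM in Per1KO, against 19.2, 19.0, 22.6, 40 and 40.8 FPKM in SS (1.16 ± 0.27, adjusted p = 0.00421). The higher SS values of Lgals3 were those of replicates 4 and 5, with proximal tubule marker means of 5.68 and 6.87 (log2(FPKM + 1)). SS replicates 1 to 3 had tubule means of 8.66, 8.34 and 8.10, and the Per1KO libraries of 6.90 to 7.70. In all, 13 of the 30 genes had every Per1KO library above every SS library, against 6.36% of all genes.

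By role, the 3 regulators all passed at this time. Spi1 was higher by 0.54 ± 0.15 (adjusted p = 0.011) and Csf1r, the receptor that keeps macrophages alive, by 0.57 ± 0.15 (adjusted p = 0.0104). Csf1r was at 28.9, 20.9, 26.9, 22.8 and 25.6 FPKM in Per1KO, against 14.4, 15.1, 16.9, 21.3 and 15.3 FPKM in SS, so that 1 SS library exceeded the lowest Per1KO one. The ligand gene Csf1 was higher by 0.50 ± 0.12 (adjusted p = 0.00608). Of 10 surface markers and integrins 7 passed, among them the endotoxin co-receptor Cd14 (0.76 ± 0.21), the integrins Itgam (0.45 ± 0.11) and Itgax (0.55 ± 0.14), and the F4/80 gene Adgre1 (0.50 ± 0.18, adjusted p = 0.0428). The call of Adgre1 was lost in 7 of 10 fits that left out 1 library and under 8 of 10 other settings, including the fit without SS replicates 4 and 5. Itgam and Itgax overlap on the same strand, so fragments in the shared stretch cannot be assigned with certainty. Their common beta chain Itgb2 (0.30 ± 0.16, adjusted p = 0.173), the tetraspanin Cd53 (0.41 ± 0.20, adjusted p = 0.125) and the costimulatory Cd86 (0.38 ± 0.15, adjusted p = 0.0693) did not pass.

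Of the 4 scavenger and lectin receptors tested, Mrc1 and the beta-glucan receptor Clec7a (0.61 ± 0.18, adjusted p = 0.0183) were higher, and Clec10a, a galactose lectin, was not past the threshold (0.62 ± 0.23, adjusted p = 0.0541). Of the 5 Fc receptors and adaptors that signal through immunoreceptor tyrosine-based activation motifs, 4 were higher. Fcer1g, the shared gamma chain of Fc receptors, was at 63.9, 61.7, 59.9, 44.3 and 59.2 FPKM in Per1KO, against 34.8, 31.5, 38, 43.9 and 34.0 FPKM in SS (0.65 ± 0.18, adjusted p = 0.0129). The lowest Per1KO library exceeded the highest SS library by a small margin. Tyrobp, the adaptor DAP12 (0.66 ± 0.20), its lipid-sensing partner Trem2 (0.85 ± 0.25) and the inhibitory Fcgr2b (0.67 ± 0.16) were also higher, though Fcgr2b overlaps Fcgr3a on the opposite strand and the strand setting of the counting was not given. Of 6 intracellular genes, 5 were higher, with Lyz2 at 0.63 ± 0.17 and the actin-bundling Lcp1 at 0.53 ± 0.16, and Aif1, which encodes the calcium-binding protein IBA1, was not past the threshold (0.26 ± 0.14, adjusted p = 0.17).

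The 10 libraries of this comparison came from 2 ranges of library number. With numbers up to 8 alone (3 Per1KO and 2 SS libraries), 21 genes passed and the median difference was 0.81. With numbers from 44 alone (2 Per1KO and 3 SS libraries, among them SS replicates 4 and 5) 0 passed and the median was 0.40. There Gpnmb differed by 1.61 (adjusted p = 0.0722), Cd68 by 0.55 (adjusted p = 0.0959) and Lgals3 by 0.62 (adjusted p = 0.273). Without SS replicates 4 and 5, 21 genes passed, with a median of 0.64. Markers of other compartments were followed in the full comparison, in which 29.8% of all genes passed in either direction and 14.2% as higher. The summed FPKM of 9 proximal tubule markers had a lowest, median and highest library of 1540, 2170 and 2620 in Per1KO, against 1680, 3750 and 5270 in SS. Of these 9 markers 6 differences were below 0 and 3 above, from -1.01 to 0.84 on the log2 scale, and 2 passed, the water channel Aqp1 (-1.01 ± 0.15, adjusted p = 0.000116 in limma) and Lrp2 (-0.85 ± 0.19, adjusted p = 0.00293). Podocyte markers had 5 of 5 differences above 0 (median 0.55, 0.39 to 0.88), of which 1 passed, Synpo (0.77 ± 0.28, adjusted p = 0.0488), and endothelial markers 5 of 5 above 0 (median 0.28, 0.09 to 0.39), of which 1 passed, Cdh5 (0.39 ± 0.13, adjusted p = 0.0289). Summed podocyte markers overlapped between the labels, at 58.2, 91.6 and 168 FPKM in Per1KO (lowest, median, highest), against 15.8, 85.8 and 148 FPKM in SS. On the log2(FPKM + 1) scale the podocyte means of SS replicates 4 and 5 were 1.82 and 2.90. The other SS libraries were at 4.07, 3.89 and 4.45, against 3.36 to 4.74 in Per1KO. The counts of these other markers were not repeated without SS replicates 4 and 5. The part of these markers in the myeloid differences was not tested.

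**Figure D2:**
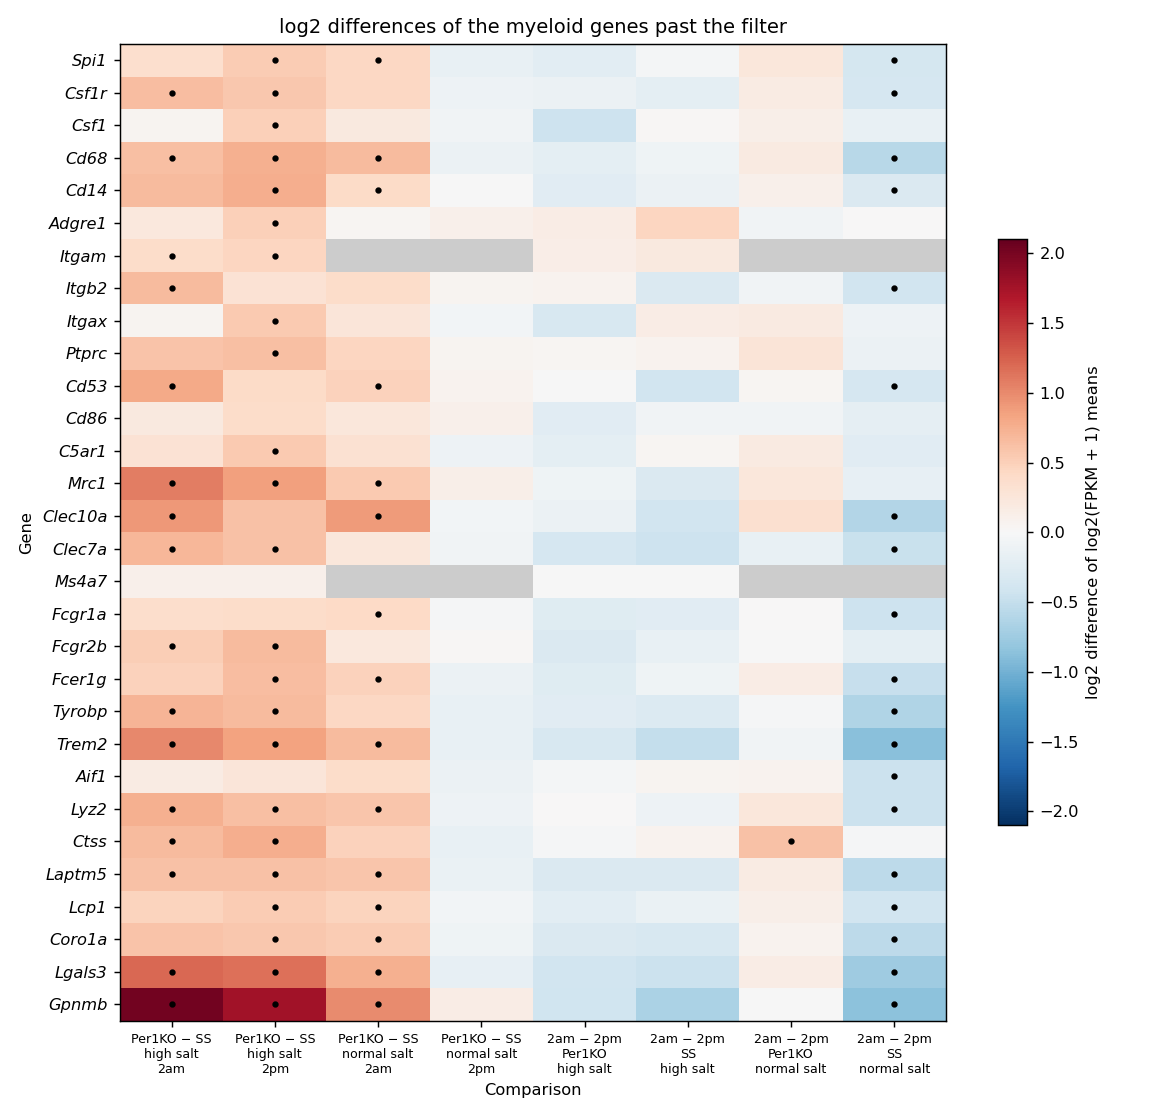
Log2 difference on the log2(FPKM + 1) scale (colour; red higher, blue lower) of each tested myeloid gene (rows, by role) in 8 comparisons (columns: 4 of Per1KO minus SS and 4 of 2am minus 2pm). Black dots mark an adjusted p under 0.05 in limma, with 23 dots for Per1KO minus SS on high salt at 2pm and 19 for 2am minus 2pm in SS on normal salt, and grey marks genes below the filter.

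On high salt at 2am, in the active phase, 16 of 30 genes were higher in Per1KO than in SS and none was lower. Among all 14899 genes, 8.95% passed in either direction and 4.3% passed as higher. The median of the 30 differences was 0.61 (0.05 to 2.02), against -0.007 for all genes, and all 30 were above 0. Gpnmb was at 12, 22.8, 29.9, 27.2 and 27.3 FPKM in Per1KO, against 1.34, 9.74, 8.49, 5.25 and 3.68 FPKM in SS (2.02 ± 0.34, adjusted p = 0.00473). Mrc1 was at 2.82, 6.41, 3.04, 5.27 and 4.09 FPKM in Per1KO, against 0.654, 2.30, 1.75, 1.57 and 1.22 FPKM in SS (1.08 ± 0.19, adjusted p = 0.00487). Both genes were higher in each Per1KO library than in any SS library. Cd68 was at 13.2, 10.9, 12.7, 13.2 and 11.2 FPKM in Per1KO, against 4.95, 8.59, 9.42, 8.84 and 6.58 FPKM in SS (0.63 ± 0.13, adjusted p = 0.0087). Lgals3 was at 27.0, 48.1, 58.2, 57.0 and 46.2 FPKM in Per1KO, against 11.7, 30.1, 20.8, 21.9 and 16.2 FPKM in SS (1.21 ± 0.27, adjusted p = 0.0113). Cd68 did not overlap between the groups, whereas for Lgals3 the lowest Per1KO library lay below the highest SS library.

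Within the roles at 2am on high salt, the count was 1 of 3 regulators, 4 of 10 surface markers and integrins, 3 of 4 scavenger and lectin receptors, 3 of 5 Fc receptors and adaptors, 3 of 6 intracellular genes, and both Lgals3 and Gpnmb. Csf1r was higher by 0.64 ± 0.15 (adjusted p = 0.0161), at 19.6, 25.4, 22.0, 24.9 and 21.4 FPKM in Per1KO, against 8.87, 18.4, 15.1, 18.1 and 12.3 FPKM in SS. Its ligand Csf1 was at means of 2.90 ± 0.46 FPKM in Per1KO and 2.77 ± 0.386 FPKM in SS (SD, n = 5 each), a difference of 0.05 ± 0.12 (adjusted p = 0.862). Spi1 was not past the threshold (0.36 ± 0.15, adjusted p = 0.138). Fcer1g was at 45.1, 48.1, 46.3, 51.1 and 49.8 FPKM in Per1KO, against 17.7, 41.9, 34.9, 50.2 and 34.2 FPKM in SS (0.49 ± 0.18, adjusted p = 0.102), with 1 SS library among the Per1KO ones. Trem2 (1.01 ± 0.25), Clec10a (0.91 ± 0.23), Cd53 (0.80 ± 0.20), Lyz2 (0.74 ± 0.17), Tyrobp (0.72 ± 0.20), Itgb2 (0.67 ± 0.16) and Ctss (0.66 ± 0.16) were higher, and Itgax (0.06 ± 0.14), Ms4a7 (0.11 ± 0.17) and Aif1 (0.17 ± 0.14) had the smallest differences besides Csf1. In 10 of the 30 genes every Per1KO library lay above every SS library, against 4.2% of all genes.

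The lowest library of the SS group at 2am on high salt was replicate 1, which was the lowest of its group for 27 of the 30 genes. Without it 7 genes passed and the median difference was 0.44; without SS replicate 5, 7 passed, and without Per1KO replicate 2, 4 or 5, 10 passed in each case. Cd68, Cd53, Mrc1, Lyz2, Lgals3 and Gpnmb passed whichever single library of the comparison was left out. The summed proximal tubule markers were 2960, 3030 and 3760 FPKM in Per1KO (lowest, median, highest), against 3540, 4590 and 5530 FPKM in SS. Their part in the result was not tested.

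On normal salt the labels differed at 2am and not detectably at 2pm. At 2am, 15 of 28 genes were higher in Per1KO and none was lower, against 4.18% of the 13436 genes tested that passed in either direction and 3.19% that passed as higher. All 28 differences were above 0, with a median of 0.45 (0.04 to 0.99), against -0.021 for all genes. Gpnmb led, at 9.63, 11.8, 12.9, 8.05 and 11.2 FPKM in Per1KO, against a lowest, median and highest SS library of 2.74, 4.93 and 7.11 FPKM (0.99 ± 0.19, adjusted p = 0.0087). Clec10a was at 7.29, 9.50, 9.91, 6.54 and 7.34 FPKM in Per1KO, against 2.65, 3.85 and 6.11 FPKM in SS (0.89 ± 0.18, adjusted p = 0.0137). For both genes every Per1KO library was above every SS library. Lgals3 was at 30.8, 30.9, 38.7, 27.2 and 31.9 FPKM in Per1KO, with an SS mean of 19.0 ± 4.30 FPKM (SD, n = 6), a difference of 0.74 ± 0.16 (adjusted p = 0.0146). Cd68 was at 10.9, 11.8, 11.3, 8.12 and 8.85 FPKM in Per1KO, against 4.84, 6.17 and 7.16 FPKM in SS (0.66 ± 0.14, adjusted p = 0.0143). These genes did not overlap between the labels either, and 16 of the 28 genes behaved so, against 4.86% of all genes.

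Also higher at 2am on normal salt were Trem2 (0.66 ± 0.18), Lyz2 (0.58 ± 0.13), the lysosomal membrane protein gene Laptm5 (0.58 ± 0.14), Mrc1 (0.55 ± 0.13), the actin regulator Coro1a (0.53 ± 0.12), Fcer1g (0.49 ± 0.14), Cd53 (0.48 ± 0.12), Lcp1 (0.46 ± 0.12), Spi1 (0.44 ± 0.11), the high-affinity IgG receptor Fcgr1a (0.42 ± 0.11) and Cd14 (0.41 ± 0.12). Csf1r was at 17.0, 19.1, 21.3, 16.4 and 17.1 FPKM in Per1KO, against 10.6, 13.4 and 16.3 FPKM in SS, and missed the threshold although the groups did not overlap (0.43 ± 0.12, adjusted p = 0.0532). Ctss was at 62.7, 72.0, 68.8, 60.8 and 58.2 FPKM in Per1KO, with an SS mean of 46.2 ± 5.53 FPKM (SD, n = 6), and also missed it (0.48 ± 0.15, adjusted p = 0.0697). Adgre1 was near 0 (0.04 ± 0.11, adjusted p = 0.895). The count depended on single libraries: it was 8 without Per1KO replicate 1, 4 without Per1KO replicate 2, 1 without Per1KO replicate 3, 4 without SS replicate 3 and 5 without SS replicate 5, and Gpnmb alone passed in every such fit. The median difference stayed between 0.39 and 0.50 in these fits. The summed FPKM of the 9 proximal tubule markers did not overlap between the labels either, at 3480, 3760 and 4350 in Per1KO (lowest, median, highest), against 4450, 4720 and 5400 in SS, although 0 of the 9 passed in limma (3 at an unadjusted p under 0.05) with all 9 differences below 0. Their part in the myeloid differences was not tested.

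At 2pm on normal salt, 0 of 28 genes passed in limma, 0 passed an unadjusted p of 0.05 and 0 passed in limma with voom weights, against 0.372% of all genes. The differences ran from -0.17 to 0.15 with a median of -0.08, and 8 were above 0. Here all SS libraries carry names with the prefix OK and all Per1KO libraries the prefix AZ, so label and library series cannot be told apart. Without Per1KO replicate 1 and SS replicate 5, 0 passed and the median was 0.05. Cd68 had a mean of 8.91 ± 1.98 FPKM in Per1KO and 9.68 ± 1.51 FPKM in SS (SD, n = 6 each; -0.12 ± 0.13, adjusted p = 0.662). Gpnmb had a mean of 10.9 ± 2.51 FPKM in Per1KO and 9.63 ± 1.56 FPKM in SS (0.15 ± 0.18, adjusted p = 0.704).

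**Figure D3:**
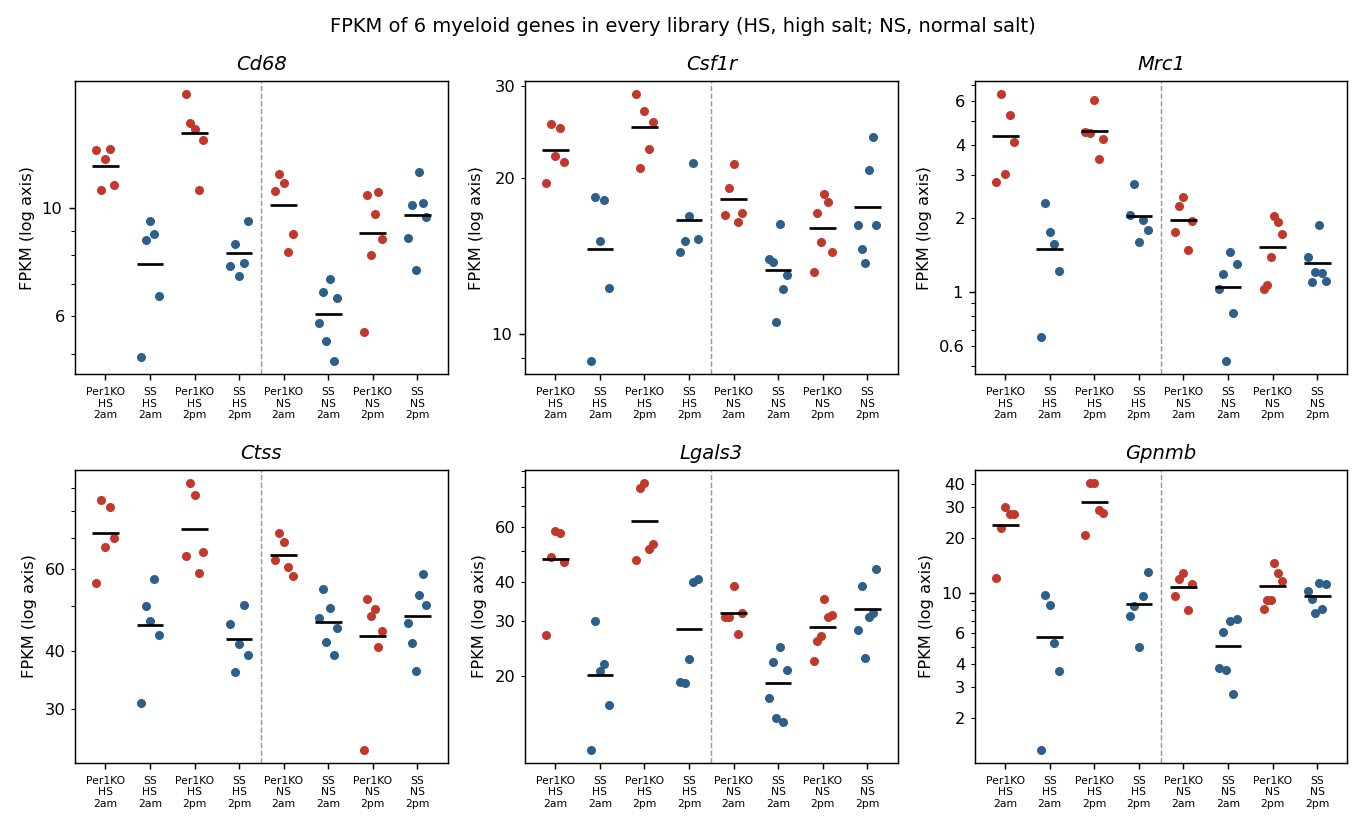
FPKM (log axis) of Cd68, Csf1r, Mrc1, Ctss, Lgals3 and Gpnmb in every library of the 8 groups (points; red Per1KO, blue SS) with the group mean (bar), and a dashed line between the diets, whose tables were normalized separately. On high salt at 2pm the Gpnmb libraries lie at 20.9 to 40.6 FPKM in Per1KO and 5 to 13 FPKM in SS, and on normal salt at 2pm the groups overlap for each of the 6 genes.

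**Figure D4:**
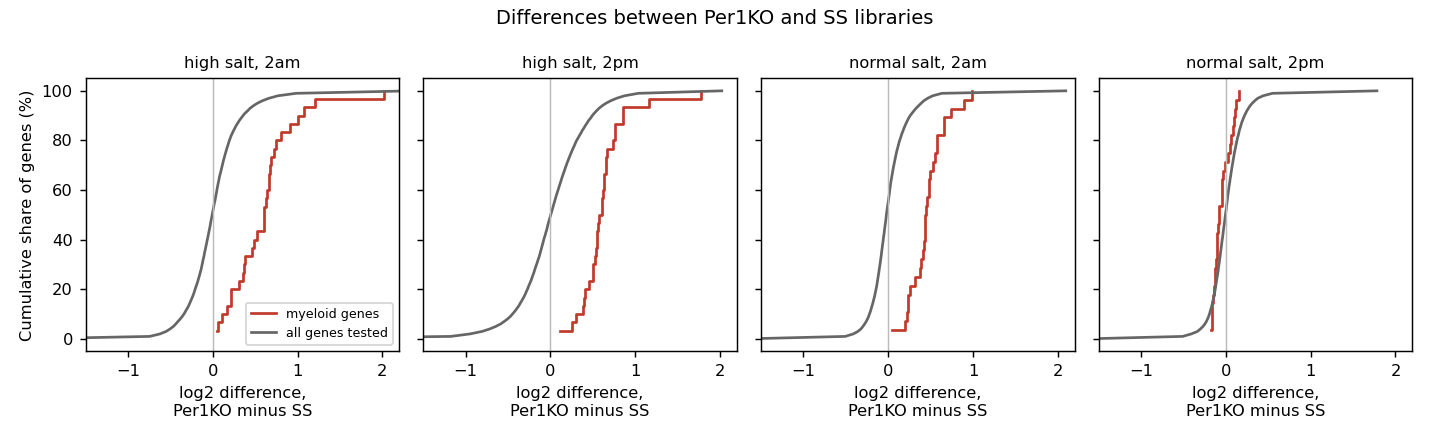
Cumulative share of genes (vertical axis) against the log2 difference Per1KO minus SS (horizontal axis) for the tested myeloid genes (red) and all tested genes (grey), with one panel per diet and time. The red curve lies to the right of the grey one on high salt at 2pm (median 0.59) and 2am (0.61) and on normal salt at 2am (0.45), but not on normal salt at 2pm (-0.08).

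In SS rats on normal salt, 19 of 28 myeloid genes were lower at 2am than at 2pm and none was higher. The 2pm libraries of this group alone carry names with the prefix OK, and all other libraries of the study the prefix AZ, so time and library series cannot be told apart here. Among all genes, 26.3% passed in either direction and 12% as lower. The differences had a median of -0.40 and a range of -0.88 to 0, against -0.004 for all genes. Trem2 had a lowest, median and highest library of 0.972, 1.24 and 2.15 FPKM at 2am, against 2.11, 4.03 and 4.37 FPKM at 2pm (-0.88 ± 0.17, adjusted p = 0.00118). Gpnmb was at 2.74, 4.93 and 7.11 FPKM at 2am, against 7.68, 9.71 and 11.4 FPKM at 2pm (-0.86 ± 0.18, adjusted p = 0.00192). The Gpnmb libraries of the 2 times did not overlap, and those of Trem2 met at their ends. Tyrobp was at 18.3, 27.0 and 32.5 FPKM at 2am, against 29.7, 44 and 51.7 FPKM at 2pm (-0.63 ± 0.13, adjusted p = 0.00225). Lgals3 had a mean of 19.0 ± 4.30 FPKM at 2am and 32.7 ± 7.54 FPKM at 2pm (SD, n = 6 each; -0.75 ± 0.15, adjusted p = 0.0013). Trem2 and Tyrobp form one receptor complex, and both were lower at night.

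Further genes lower at 2am in SS rats on normal salt were Clec10a (-0.61 ± 0.18), Cd68 (-0.59 ± 0.13), Laptm5 and Coro1a (-0.55 each), Fcer1g (-0.48 ± 0.13), Clec7a (-0.46 ± 0.12), Aif1 and Lyz2 (-0.45 each), Fcgr1a (-0.44 ± 0.11), Itgb2 (-0.41 ± 0.13), Lcp1 (-0.40 ± 0.11), Spi1 (-0.37 ± 0.11), Csf1r and Cd53 (-0.36 each) and Cd14 (-0.31 ± 0.11). Adgre1 was at means of 6.53 ± 0.662 FPKM at 2am and 6.64 ± 1.51 FPKM at 2pm (SD, n = 6 each; adjusted p = 0.995), and Ctss differed by -0.03 ± 0.14 (adjusted p = 0.881). In 3 genes, Cd68, Fcgr1a and Gpnmb, every 2am library lay below every 2pm library, against 3.44% of all genes. In the same comparison 3 of 9 proximal tubule markers were higher at 2am, against 26.3% of all genes passing in either direction. One of the 3 was the endocytic receptor Cubn (0.68 ± 0.18, adjusted p = 0.00832 in limma). Sums over the 9 were 4450, 4720 and 5400 FPKM at 2am, against 2400, 4260 and 4850 FPKM at 2pm. Of 9 T and NK cell markers 4 were lower at 2am, against 12% of all genes. Their part in the result was not tested. Without SS 2pm replicate 5 and Per1KO 2pm replicate 1, 16 myeloid genes were lower at 2am.

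In Per1KO rats on normal salt, Ctss alone of the 28 genes passed between the times and was higher at 2am, against 3.11% of all genes passing in either direction and 1.66% as higher. Ctss was at 62.7, 72.0, 68.8, 60.8 and 58.2 FPKM at 2am, against a lowest, median and highest library of 24.5, 46.0 and 51.9 FPKM at 2pm (0.61 ± 0.15, adjusted p = 0.026). The times did not overlap, as for 3.34% of all genes, but the call was lost without 2am replicate 1, 2 or 3. Without the normal salt 2pm libraries that stood apart the count was 1 and the median 0.05, against 0.13 with them. Cd68 differed by 0.19 ± 0.14 (adjusted p = 0.503), Gpnmb by -0.01 ± 0.19 (adjusted p = 0.987) and Trem2 by -0.07 ± 0.18 (adjusted p = 0.885). On high salt, 0 of 30 genes passed between 2am and 2pm in Per1KO and 0 in SS, against 0.262% and 5.44% of all genes; in each label 2 of the 30 had an unadjusted p under 0.05 and voom weights also gave 0. The medians were -0.22 in Per1KO and -0.13 in SS; without SS 2pm replicates 4 and 5 the SS count was 0 and its median -0.05. Csf1 had the smallest p in Per1KO, with means of 2.90 ± 0.46 FPKM at 2am and 4.23 ± 0.538 FPKM at 2pm (SD, n = 5 each; -0.43 ± 0.12, adjusted p = 0.114). It and Itgax had every 2am library below every 2pm library, against 2.7% of all genes.

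The interaction of label and time tested whether the label difference itself changed between the times. On normal salt 6 of 28 genes had a larger Per1KO minus SS difference at 2am than at 2pm and none a smaller one, against 2.81% of all genes passing in either direction and 1.49% in this one. They were Clec10a (0.94 ± 0.25, adjusted p = 0.0481), Lgals3 (0.90 ± 0.22, adjusted p = 0.0308), Cd68 (0.78 ± 0.19, adjusted p = 0.0331), Laptm5 (0.73 ± 0.19, adjusted p = 0.0424), Lyz2 (0.69 ± 0.18, adjusted p = 0.0406) and Spi1 (0.60 ± 0.16, adjusted p = 0.0409). Of the 28 estimates 27 were above 0, with a median of 0.52. SS at 2pm was the group with the prefix OK, and a difference of that library series would enter these estimates. These 6 calls lay near the threshold. The count was 0 without Per1KO 2pm replicate 3, without Per1KO 2am replicate 2 or 3, or without SS 2am replicate 1, 3 or 5. It was 1 without Per1KO 2pm replicate 1, Per1KO 2am replicate 1, SS 2pm replicate 2 or SS 2pm replicate 4, and 2 or 3 without Per1KO 2pm replicate 6, Per1KO 2am replicate 5, SS 2am replicate 6 or SS 2am replicate 2. It was 10, 11 and 16 without SS 2am replicate 4, Per1KO 2pm replicate 2 and SS 2pm replicate 3. Without both normal salt 2pm libraries that stood apart, 1 gene passed. The median stayed between 0.44 and 0.57 in the fits that left out one library. On high salt 0 of 30 genes passed this test (2 at an unadjusted p under 0.05, 0 with voom weights), against 0.101% of all genes, with a median of -0.02; without SS 2pm replicates 4 and 5 the count was 0 and the median -0.09.

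The interaction of label and diet, taken from a joint fit of all 43 libraries, asked whether the label difference on high salt departed from that on normal salt. At 2pm it did for 21 of 30 genes, all with a larger Per1KO minus SS difference on high salt, against 22% of all 14102 genes passing in either direction and 11% in this direction. The median was 0.66 (0.18 to 1.62). The largest was Gpnmb (1.62 ± 0.38, adjusted p = 0.00313), followed by Lgals3 (1.32 ± 0.31, adjusted p = 0.00276), Trem2 (1 ± 0.31, adjusted p = 0.0175), Ctss (0.92 ± 0.22, adjusted p = 0.00288) and Cd68 (0.87 ± 0.19, adjusted p = 0.00194). All 3 regulators passed, with Spi1 at 0.70 ± 0.18, Csf1r at 0.68 ± 0.20 and Csf1 at 0.58 ± 0.17. Without the 4 libraries that stood apart 12 genes passed, with a median of 0.63. One arm of this test, SS on normal salt at 2pm, was the only group whose library names begin with OK. A difference of that library series would enter the estimates, and the test was not repeated by range of library number. At 2am 0 of 30 passed (3 at an unadjusted p under 0.05, 0 with voom weights), against 0% of all genes, and the median was 0.12; the largest estimate was that of Gpnmb (1.03 ± 0.39, adjusted p = 0.831). The interaction of time and diet gave 0 of 30 in Per1KO (5 unadjusted, 1 with voom weights) and 0 of 30 in SS (3 unadjusted, 0 with voom weights), against 2.94% and 0.0709% of all genes. Without the 4 libraries apart both counts were 0, with medians of -0.26 and 0.26, against -0.32 and 0.20 with them.

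The diets were normalized in separate tables, so diet and table cannot be told apart and levels are given side by side with no test. In Per1KO at 2pm, 13 of 30 genes had every high salt library above every normal salt library, against 11.1% of all genes. They were Csf1r, Csf1, Cd68, Cd14, the anaphylatoxin receptor C5ar1, Mrc1, Clec10a, Clec7a, Fcgr2b, Lyz2, Ctss, Lgals3 and Gpnmb. Gpnmb had a mean of 31.7 ± 8.65 FPKM on high salt (n = 5) and 10.9 ± 2.51 FPKM on normal salt (SD, n = 6). Mrc1 had a mean of 4.54 ± 0.957 FPKM on high salt and 1.53 ± 0.431 FPKM on normal salt. In SS at 2pm no gene separated the diets, against 3.81% of all genes above and 2.6% below, with Gpnmb at a mean of 8.67 ± 2.94 FPKM on high salt and 9.63 ± 1.56 FPKM on normal salt. At 2am 4 genes lay above in Per1KO (Adgre1, Itgam, Mrc1 and Trem2), against 10.6% of all genes, and Itgax lay below, against 9.62%. In SS at 2am no gene separated the diets, against 3.39% above and 2.5% below. The Per1KO 2am count in either direction, 5 with all libraries, became 18 without high salt replicate 1. That library was lowest of its group for 22 of the 30 genes. The share of all genes was not computed without it, so the count of 18 has no background to be read against.

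Cd163 and S100a9 had low values throughout. Cd163 was at 0.0548, 0.286, 0.571, 0.394 and 0.141 FPKM in Per1KO on high salt at 2pm, against 0.0337, 0.0946, 0, 0.0725 and 0.0791 FPKM in SS. At 2am on high salt it was at 0.0715, 0.666, 0.0425, 0.545 and 0.173 FPKM in Per1KO, against 0.132, 0.122, 0.0552, 0.0787 and 0.0742 FPKM in SS. Its highest libraries were Per1KO ones, at 71 fragments or fewer, and the groups overlapped at both times. S100a9 was at 0.265, 0.908, 0.130, 0.657 and 0.457 FPKM in Per1KO on high salt at 2pm, against 0.363, 0.654, 1.36, 0 and 0.160 FPKM in SS. At 2am on high salt it was at 0, 0.278, 0.572, 0.314 and 0.187 FPKM in Per1KO, against 0.887, 0.447, 0.445, 0.181 and 0.299 FPKM in SS. It did not follow the label order of Cd68 in these libraries, and 14 neutrophil markers summed to 0.768 to 5.10 FPKM in all 43 libraries, with Mpo, Elane or Fpr1 at 0 in every library of several groups.

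A further list of macrophage genes that are not among the 36 was measured in the same comparisons. On high salt at 2pm 24 of 39 tested were higher in Per1KO, among them the complement C1q chain C1qb (1 ± 0.16, adjusted p = 0.000301), the NADPH oxidase subunit Ncf1 (0.66 ± 0.12, adjusted p = 0.000701) and the scavenger receptor Stab1 (0.83 ± 0.15, adjusted p = 0.00071). At 2am on high salt 11 of 39 were higher, with Stab1 (0.76 ± 0.15), the sialoadhesin gene Siglec1 (0.73 ± 0.15) and the macrophage elastase gene Mmp12 (1.03 ± 0.21) at the smallest p-values. On normal salt at 2am 13 of 36 were higher, and at 2pm 0 of 36 passed in limma (4 at an unadjusted p under 0.05). Between the times in SS on normal salt 12 of 36 were lower at 2am, led by Ly86 (-0.50 ± 0.09, adjusted p = 0.000888), the partner of a toll-like receptor homologue. Among all genes tested, 14.2% passed as higher in Per1KO on high salt at 2pm, 4.3% at 2am and 3.19% on normal salt at 2am. On normal salt at 2pm 0.372% passed in either direction, and 12% were lower at 2am than at 2pm in SS. Macrophages express both lists, so the additional genes are not independent of the 36.

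Markers of other leukocytes were measured in the same comparisons. The summed FPKM of 12 T and NK cell markers had a lowest, median and highest library of 16.6, 28.3 and 34.9 in Per1KO on high salt at 2pm, against 12.2, 16.2 and 20.3 in SS, and 3 of 8 tested were higher (Cd2, Lck and Cd3e, the last at 0.76 ± 0.23, adjusted p = 0.0175). On normal salt at 2am the sums were 16.7, 17.8 and 22.0 FPKM in Per1KO, against 9.89, 13 and 16.1 FPKM in SS, and 2 of 9 were higher. On high salt at 2am the sums overlapped, at 18.1, 18.4 and 20.1 FPKM in Per1KO, against 7.0, 15.0 and 19.3 FPKM in SS, and 1 of 8 was higher, Cd2 (0.63 ± 0.17, adjusted p = 0.0272). Of 4 dendritic cell markers tested, Flt3 (0.51 ± 0.16) and Batf3 (0.89 ± 0.29) were higher on high salt at 2pm, and 0 of 4 passed on high salt at 2am in limma (2 at an unadjusted p under 0.05). Among all genes, 14.2% passed as higher on high salt at 2pm, 4.3% at 2am and 3.19% on normal salt at 2am. On high salt at 2am 8.95% passed in either direction. B and plasma cell markers summed to at most 4.33 FPKM and mast cell markers to at most 0.924 FPKM. Ptprc, Coro1a, Cd53, Laptm5, Lcp1 and Itgb2 are expressed by lymphocytes as well as by myeloid cells, and the share of their signal from each was not tested.

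Within some groups 1 library was the lowest for most of the tested genes: SS high salt 2am replicate 1 for 27 of 30, Per1KO high salt 2am replicate 1 for 22 of 30, Per1KO high salt 2pm replicate 4 for 19 of 30 and Per1KO normal salt 2pm replicate 1 for 26 of 28. The same held on normal salt at 2am for Per1KO replicate 4 (21 of 28) and SS replicate 3 (16 of 28). SS high salt 2pm replicate 4 had the lowest proximal tubule mean of the study, 5.68 on the log2(FPKM + 1) scale, and the highest myeloid mean of its group, 2.78, with the others at 2.53 to 2.67. The lowest myeloid mean of the study, 2.05, was that of SS high salt 2am replicate 1, which had the highest tubule mean, 8.79. Per1KO normal salt 2pm replicate 1, the lowest of its group at 2.43, had a tubule mean of 8.70. In Per1KO on high salt at 2pm the tubule means were 6.90 to 7.70 and at 2am 7.96 to 8.12, against 5.68 to 8.66 and 8.03 to 8.79 in SS. The share of the myeloid differences that goes with the tubule content of a sample was not tested.

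**Figure D5:**
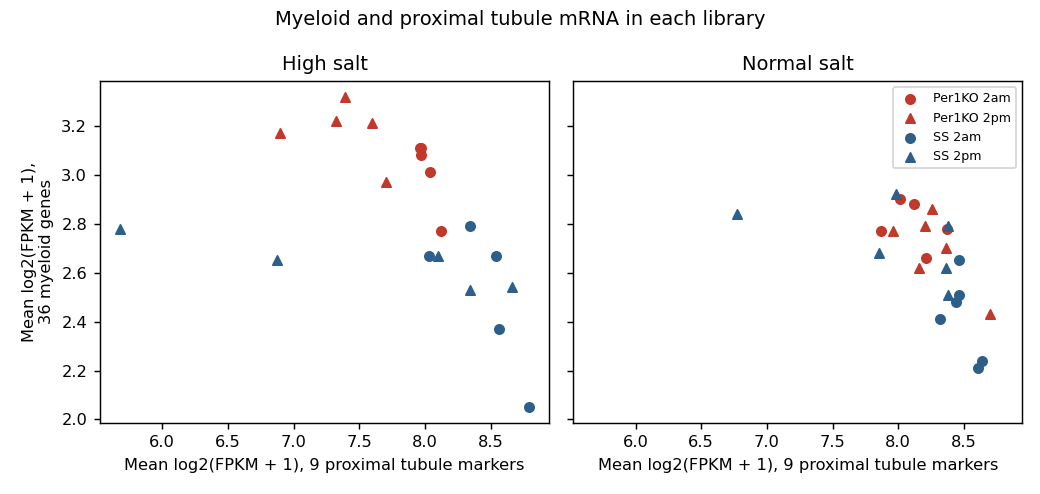
Mean log2(FPKM + 1) over the 36 myeloid genes (vertical axis) against the mean over 9 proximal tubule markers (horizontal axis) in each library, with circles for 2am and triangles for 2pm, red for Per1KO and blue for SS, and one panel per diet. On high salt the Per1KO 2pm libraries lie at tubule means of 6.90 to 7.70 and myeloid means of 2.97 to 3.32, and the SS 2pm libraries spread over tubule means of 5.68 to 8.66 at myeloid means of 2.53 to 2.78.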

How the data were processed

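Messenger RNA of kidney cortex was purified with poly-T beads, per the labels' protocols, which name both directional and non-directional libraries. The authors deposited FPKM values (fragments scaled by gene length and library total) per gene in one table for each diet. Per the submitters' processing notes, featureCounts 1.5.0-p3, StringTie 1.3.3b, HISAT2 2.0.5 and fastp were used, while no source used here names the genome build. FPKM times gene length gave whole fragments (within 0.01) for 100% of values.

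Differences were tested in limma 3.58.1 (R 4.3.3) on log2(FPKM + 1) with group means per table and a mean-variance trend, over all genes at 1 FPKM or more in at least 5 libraries of that table, two-sided, with Benjamini-Hochberg adjustment over all genes tested (passing: adjusted p below 0.05). The pseudocount understates changes of low genes. The interaction of diet used a joint fit. Counts of FPKM-derived fragments entered limma with voom weights as an alternative. Promoters came from RefSeq (GRCr8). The fit was tested on simulated data. Deviations of same-numbered replicates from their group means had a mean r of 0.019 on normal salt (-0.526 to 0.612). On high salt the mean r was 0.032 (-0.23 to 0.421). The labels do not say that numbers pair libraries, and such means cannot exclude it. No libraries within a group matched within sampling noise. Apart from high salt 2pm, each group had its own range of library numbers, so these cannot be told apart from label and time. SS normal salt 2pm was also the only group whose library names begin with OK and not AZ, which bears on every normal salt comparison that uses it (label at 2pm, time in SS, label by time) and on label by diet at 2pm and time by diet in SS. The 36 genes, the lists and the libraries left out were chosen with earlier results of these data known. Library values are given for 1 gene per role and for up to 4 passing genes with the smallest p in a comparison.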

Additional observations from a re-analysis of the deposited data

Results flagged for a closer look

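The genes described by library and the mean over the 36 genes gave 120 groups of library values to check. Of these, 8 held a library whose gap to its nearest neighbour was large for the range of its group, and chance gives about 1 in 20. On high salt, Lyz2 was lowest in Per1KO 2am replicate 1, at 277 FPKM, Fcer1g in Per1KO 2pm replicate 4, at 44.3 FPKM, and Spi1 in SS 2am replicate 1, at 3.10 FPKM. Those libraries were also the lowest of their groups for 22, 19 and 27 of the 30 tested genes. On normal salt, Spi1 was lowest in Per1KO 2am replicate 4, at 6.02 FPKM, and Fcer1g was highest in Per1KO 2am replicate 2, at 60 FPKM. Mrc1 was highest in SS 2pm replicate 4, at 1.87 FPKM. S100a9 was highest in Per1KO 2pm replicate 1, at 0.755 FPKM, and in SS 2pm replicate 6, at 0.780 FPKM.

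The Per1KO minus SS difference itself differed between 2am and 2pm on normal salt for 6 of 28 genes, including Lgals3 (by 0.90 on the log2 scale), Cd68 (0.78), Lyz2 (0.69) and Spi1 (0.60). At 2pm it differed between high and normal salt for 21 of 30 genes, including Gpnmb (1.62), Lgals3 (1.32), Ctss (0.92) and Cd68 (0.87). Both tests used SS on normal salt at 2pm, the only group whose library names begin with OK.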

How the results depend on the processing

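No count of passing genes reversed direction under any alternative run. The label by time count on normal salt was 6, and became 0 with no filter on low values, 10 with a replicate block and 1 without the normal salt 2pm libraries that stood apart. The label difference on high salt at 2pm passed for 23 genes, and for 0 with library numbers from 44 alone, a smaller subset that held SS replicates 4 and 5. The label by diet count at 2pm was 21, and 12 without the 4 libraries apart. The 2am minus 2pm count in Per1KO on high salt was 0, and 1 when only the groups compared were fitted; the time by diet count in Per1KO was 0, and 1 with voom weights. The cause was not tested for these changes. The replicate block gave 15 for the label on normal salt at 2am, 22 and 16 on high salt at 2pm and 2am, 18 for time in SS on normal salt and 21 for label by diet at 2pm.

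Leaving out 1 library at a time, the counts ranged from 1 to 18 for the label on normal salt at 2am, 18 to 24 and 7 to 19 on high salt at 2pm and 2am, 15 to 19 for time in SS and 0 to 1 in Per1KO on normal salt, 0 to 16 for label by time on normal salt, 17 to 21 for label by diet at 2pm and 0 to 1 for time by diet in Per1KO. All other tests stayed at 0. Counts of genes separating the diets in either direction ranged from 13 to 18 in Per1KO and 0 to 1 in SS at 2pm, and from 5 to 18 in Per1KO and 0 to 0 in SS at 2am. The shares of all genes were not computed with a library left out. The library choices described as standing apart or by number were made after seeing the data. With 5 or 6 libraries a group and genes near 1 FPKM resting on few fragments, small differences were not detectable.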

Other observations

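Outside the 36 genes, the label by diet differences at 2pm with the smallest p-values among further macrophage genes were those of complement and transport genes. C1qc, a chain of the complement component C1q, had an estimate of 1.17 ± 0.23 (adjusted p = 0.000786 in limma), C1qb 1.13 ± 0.23 (adjusted p = 0.00109) and the phagosomal metal transporter gene Slc11a1 0.92 ± 0.18 (adjusted p = 0.000867). Of the 40 further macrophage genes tested in the joint fit, 16 passed, all with a larger Per1KO minus SS difference on high salt. Among all genes, 11% passed in this direction. Slc11a1 was also higher at 2am than at 2pm in Per1KO on normal salt (0.63 ± 0.11, adjusted p = 0.00221), the direction of Ctss in the same libraries. In SS on high salt the interferon regulatory factor gene Irf5 was higher at 2am than at 2pm (0.72 ± 0.17, adjusted p = 0.018 in limma). It was the only 1 of 39 further macrophage genes to pass there, against 5.44% of all genes in either direction.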
